A study of Homo sapiens with 90 samples.

Results

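The enzymes that build farnesyl diphosphate from acetyl-CoA were followed in HepG2 cells, an established human hepatocellular carcinoma line, after exposure to 3 pesticides. The genes were ACAT2, HMGCS1, MVK, PMVK, MVD, IDI1 and FDPS, chosen by their place in the mevalonate pathway. These genes and the lists set beside them were chosen with earlier results of these data known. Counts of them beside the share of all probe sets are therefore descriptions. Every probe set with 1 gene symbol was taken, which gave 14 probe sets of 7 genes among 54613 non-control probe sets, in which 19774 genes had a probe set with 1 symbol. The exposed cells received fenbuconazole, imazalil or 2,4-D at 9 doses between 0.001 and 10 µM, each about 3-fold above the one before, with 3 arrays per dose, and the control cells received the DMSO vehicle alone, also with 3 arrays. All wells were plated at 18000 cells per well, were exposed 24 h after plating for a further 24 h, and held 0.2% DMSO. Both fungicides are azoles, with a triazole ring in fenbuconazole and an imidazole ring in imazalil, while 2,4-D (2,4-dichlorophenoxyacetic acid) is a herbicide of another class. The 3 DMSO arrays were common to the 3 compounds, so the contrasts against DMSO are not independent of each other. The labels do not say whether the replicates came from separate cultures, so p-values measure only the spread between arrays, which may be technical.

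In the mevalonate pathway, acetyl-CoA units are joined and converted to mevalonate. Mevalonate is then phosphorylated and decarboxylated to isopentenyl diphosphate, from which farnesyl diphosphate is assembled. Farnesyl diphosphate is the branch point to squalene and cholesterol on one side and to protein prenylation, dolichol and ubiquinone on the other. In liver cells the genes of the pathway are known targets of the transcription factor SREBP2, which is processed to its active form when membrane sterols are low and which acts at sterol regulatory elements beside other factors such as NF-Y, a CCAAT box binding protein. Azole fungicides are designed against the fungal form of CYP51, a sterol demethylase downstream of farnesyl diphosphate.

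The promoters of the genes are shown because those motifs are the ones the pathway is known for. RefSeq windows on GRCh38.p14 were matched for 6 of 7 genes and gave 9 windows, with ACAT2 not matched. Only the 250 bases upstream of each start were used, written 5′ to 3′ on the strand of the gene. One window is printed per gene. The capitals mark the CCAAT box (CCAAT) and the core of the sterol regulatory element (CACNCCA) on either strand. HMGCS1 and IDI1 had further windows, and the window printed for each is the one with the most matches to these motifs.
HMGCS1, chr5:43313413-43313662, minus strand: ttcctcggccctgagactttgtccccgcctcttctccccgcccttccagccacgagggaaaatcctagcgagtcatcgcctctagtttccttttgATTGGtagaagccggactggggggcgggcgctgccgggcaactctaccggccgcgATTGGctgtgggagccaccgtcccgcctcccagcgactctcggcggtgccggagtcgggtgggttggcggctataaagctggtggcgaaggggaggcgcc
MVD, chr16:88663092-88663341, minus strand: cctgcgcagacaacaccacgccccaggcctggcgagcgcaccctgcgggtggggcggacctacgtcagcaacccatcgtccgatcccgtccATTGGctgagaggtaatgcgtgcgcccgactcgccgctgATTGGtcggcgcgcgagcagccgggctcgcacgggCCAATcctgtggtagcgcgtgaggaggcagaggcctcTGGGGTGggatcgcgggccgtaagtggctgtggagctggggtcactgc
MVK, chr12:109573544-109573793, plus strand: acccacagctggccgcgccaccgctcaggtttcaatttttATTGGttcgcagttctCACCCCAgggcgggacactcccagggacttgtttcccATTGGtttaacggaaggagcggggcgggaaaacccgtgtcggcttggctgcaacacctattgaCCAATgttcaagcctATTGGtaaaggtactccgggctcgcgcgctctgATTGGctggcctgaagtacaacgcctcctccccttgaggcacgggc
IDI1, chr10:1048887-1049136, minus strand: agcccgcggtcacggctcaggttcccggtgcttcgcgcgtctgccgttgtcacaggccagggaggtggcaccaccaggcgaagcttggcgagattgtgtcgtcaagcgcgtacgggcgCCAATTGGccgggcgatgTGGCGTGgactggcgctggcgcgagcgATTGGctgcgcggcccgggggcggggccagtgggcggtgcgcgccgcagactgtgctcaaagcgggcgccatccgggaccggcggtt
FDPS, chr1:155308616-155308865, plus strand: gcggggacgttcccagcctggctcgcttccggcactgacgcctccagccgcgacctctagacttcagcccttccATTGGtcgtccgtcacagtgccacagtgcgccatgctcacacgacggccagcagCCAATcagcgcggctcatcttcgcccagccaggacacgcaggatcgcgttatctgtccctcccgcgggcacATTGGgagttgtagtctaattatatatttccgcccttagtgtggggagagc
PMVK, chr1:154936720-154936969, minus strand: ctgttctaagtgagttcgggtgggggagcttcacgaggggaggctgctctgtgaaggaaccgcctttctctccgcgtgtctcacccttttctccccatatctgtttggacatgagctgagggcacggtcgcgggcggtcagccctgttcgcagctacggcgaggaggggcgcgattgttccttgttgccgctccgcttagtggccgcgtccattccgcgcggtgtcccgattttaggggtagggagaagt
The core CACNCCA was found in 3 of the 9 windows, those of MVK and MVD and the printed one of IDI1, and in 14.7% of all 35116 windows of the same length. The longer form TCACNCCAC was found in 0 of the 9 windows and in 0.883% of all windows. In the MVD window the core lay from base -48 to base -42 relative to the start. A CCAAT box was found in 6 of the 9 windows and in 32% of all windows. The MVK window held 5 CCAAT boxes, the MVD, FDPS and printed IDI1 windows held 3 each, and the printed HMGCS1 window held 2. In the printed IDI1 window a pair of them overlap on opposite strands. The HMGCS1 window not printed held 0 CCAAT boxes and 0 cores. The IDI1 windows not printed held 0 and 2 CCAAT boxes and 0 cores. At least 2 boxes were found in 9.53% of all windows, at least 3 in 2.93% and at least 5 in 0.319%. The PMVK window held neither motif. A GC box (GGGCGG, either strand) was found in all 9 windows and in 42.6% of all windows. These matches describe letters and were not tested as binding sites.

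The values are log2 probe set intensities, and a difference of 1 is a 2-fold change. Levels are not compared between genes, because probe sets bind with different strength. The mean over the 90 columns was 9.81 for ACAT2, 8.65 and 8.39 for the HMGCS1 probe sets, 6.51, 5.20 and 4.63 for those of MVK, 5.97 for PMVK, 5.59 for MVD, 10.19, 9.95, 5.71 and 3.56 for those of IDI1 and 9.64 and 2.73 for those of FDPS. The median of 23 antigenomic control probe sets, which match no human gene, was 2.45. The weaker FDPS probe set (217344_PM_at) was therefore close to that background, and its values carry little information. The brightest probe set of each gene stands for the gene below unless another is named. Of 7 hepatocyte markers, 6 were measured, with mean levels between 10.09 and 13.1. Of 6 markers of other cells, 5 lay between 2.66 and 4.18, and LYZ was at 11.01.

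**Figure D1:**
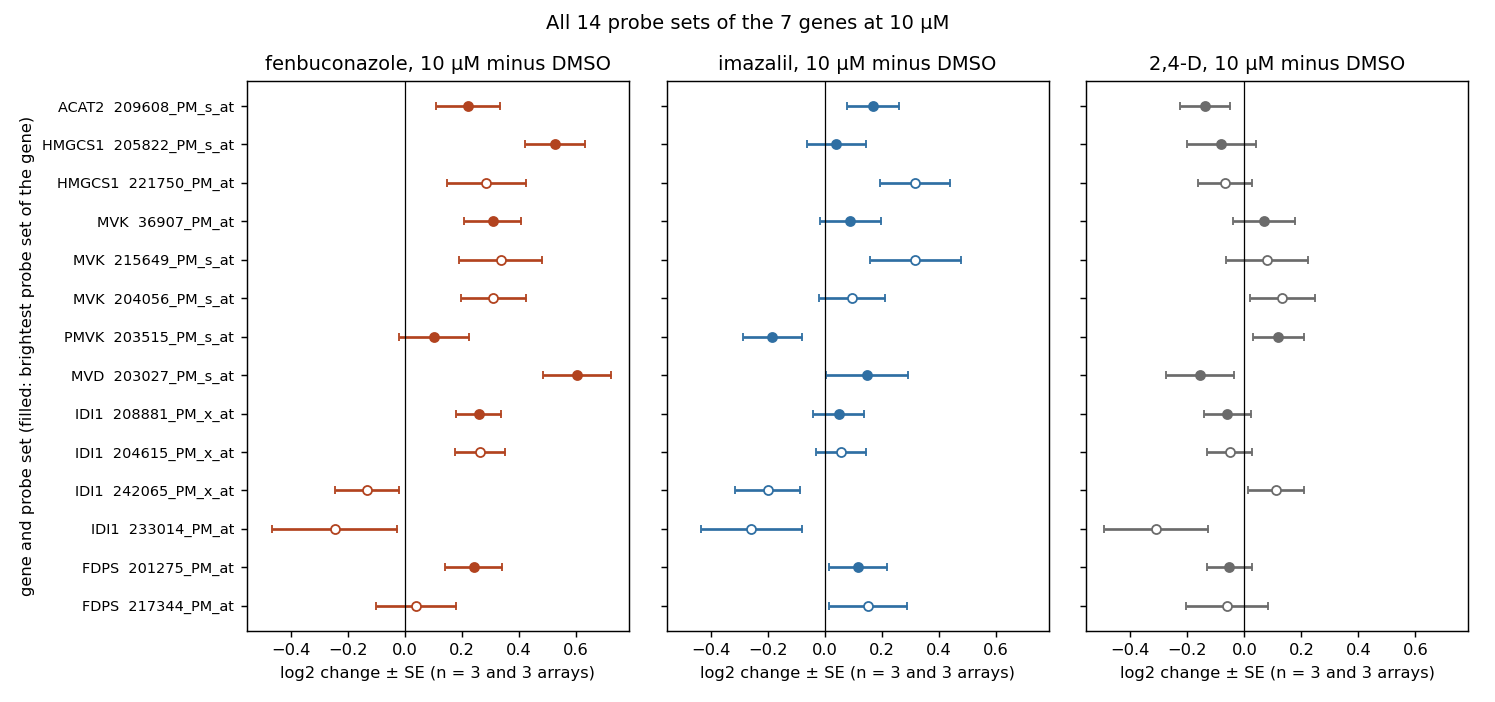
Log2 change at 10 µM against DMSO for each of the 14 probe sets and each compound, with bars of 1 SE from limma. The fenbuconazole points of HMGCS1 (205822_PM_s_at) and MVD stand farthest to the right, at 0.53 and 0.61. Of the 14 points of 2,4-D, 5 are above 0 and 9 below it, with a median of -0.06.

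At 10 µM fenbuconazole, the means of all 7 genes were above those of DMSO, and the median of their log2 changes was 0.26 (SD over arrays 0.0842). MVD and HMGCS1 had the highest changes, 1.52-fold and 1.44-fold. At 10 µM imazalil, 6 of 7 genes were above DMSO with a median of 0.09, and at 10 µM 2,4-D, 2 of 7 were, with a median of -0.06. Over all 54613 probe sets the median change at 10 µM was close to 0 for each compound. Over all 14 probe sets, 12 lay above DMSO with fenbuconazole, 11 with imazalil and 5 with 2,4-D. The shares of all probe sets above DMSO were 49.9%, 48.4% and 49.8%. A count of 12 was also reached at 0.003, 0.01, 0.3 and 3 µM fenbuconazole and at 0.3 µM 2,4-D. Already at 0.001 µM fenbuconazole, 6 of 7 genes were above DMSO, so these counts do not mark 10 µM. The arrays measured whole wells, so fewer cells expressing a gene and less RNA per cell cannot be told apart.

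None of the 14 probe sets passed an adjusted p of 0.05 (limma, Benjamini-Hochberg over all probe sets) at 10 µM fenbuconazole against DMSO, a contrast in which 0.00549% of all probe sets passed. At an unadjusted limma p under 0.05, 8 of the 14 passed, all 8 above DMSO, against 4.36% of all probe sets. All 3 arrays lay above all 3 DMSO arrays for 6 of the 14, from 5 genes, against 4.7% of all probe sets. These counts come from the same arrays, and probe sets of 1 gene share a transcript. The genes were chosen with earlier results of these data known, so the counts are a description.

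ACAT2 encodes the cytosolic thiolase that joins acetyl-CoA units to acetoacetyl-CoA, the first step. Its 3 arrays at 10 µM fenbuconazole were at 10.04, 9.89 and 9.90, against 9.88, 9.62 and 9.65 in DMSO. The groups did not overlap, but the lowest exposed array and the highest DMSO array were nearly equal. The log2 change was 0.22 ± 0.11 (SE, n = 3 per group, limma adjusted p = 0.999). At 3 µM the arrays read 10.12, 9.84 and 10.06, a change of 0.29, which was the highest ACAT2 mean of the 9 doses.

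HMGCS1 encodes the cytosolic synthase that forms 3-hydroxy-3-methylglutaryl-CoA. Probe set 205822_PM_s_at was at 9.00, 9.11 and 8.95 at 10 µM fenbuconazole, against 8.56, 8.40 and 8.51 in DMSO. Each exposed array was higher than each DMSO array. The mean was 9.02 ± 0.08 at 10 µM and 8.49 ± 0.08 in DMSO (SD, n = 3 each), a log2 change of 0.53 ± 0.10 (SE), with a limma adjusted p = 0.182. At 3 µM the arrays were at 8.96, 8.98 and 8.87, a change of 0.44 (1.36-fold, limma adjusted p = 1). At 1 µM they were at 8.85, 8.71 and 8.82, a change of 0.30 (limma adjusted p = 1). At 0.3, 1, 3 and 10 µM all 3 arrays were above all DMSO arrays. The other HMGCS1 probe set, 221750_PM_at, was at 8.80, 8.43 and 8.38 at 10 µM, against 8.50, 7.95 and 8.31 in DMSO. Its groups overlapped, since 1 DMSO array stood above 2 exposed arrays. Its change was 0.29 ± 0.14 (SE) at 10 µM and 0.46 at 3 µM (limma adjusted p = 0.999 and 1).

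MVK encodes mevalonate kinase, which adds the first phosphate to mevalonate. Probe set 36907_PM_at was at 6.71, 6.64 and 6.78 at 10 µM fenbuconazole, against 6.25, 6.51 and 6.44 in DMSO. The groups did not overlap, and the change was 0.31 ± 0.10 (SE, limma adjusted p = 0.999). The dimmer MVK probe sets had changes of 0.34 ± 0.15 (215649_PM_s_at) and 0.31 ± 0.11 (204056_PM_s_at). At 3 µM the change of 36907_PM_at was 0.11, as at 0.003 and 0.01 µM. PMVK encodes phosphomevalonate kinase, which adds the second phosphate. It was at 5.75, 6.34 and 6.13 at 10 µM, against 5.92, 6.08 and 5.92 in DMSO. The arrays at 10 µM lay on both sides of the DMSO arrays, and the change was 0.10 ± 0.12 (SE).

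MVD encodes the decarboxylase that forms isopentenyl diphosphate. Its 3 arrays were at 6.20, 6.42 and 6.05 at 10 µM fenbuconazole, against 5.68, 5.56 and 5.61 in DMSO. The lowest exposed array was above the highest DMSO array. The mean was 6.22 ± 0.19 at 10 µM and 5.62 ± 0.06 in DMSO (SD, n = 3 each), a log2 change of 0.61 ± 0.12 (SE), with a limma adjusted p = 0.182. At 3 µM the arrays were at 6.13, 6.03 and 6.04, a change of 0.45 (1.37-fold, limma adjusted p = 1). At 1 µM the change was 0.16, with 2 of 3 arrays above all DMSO arrays, whereas all 3 were at 0.003, 0.3, 3 and 10 µM.

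IDI1 encodes the isomerase that turns isopentenyl diphosphate into dimethylallyl diphosphate. Probe set 208881_PM_x_at was at 10.44, 10.46 and 10.27 at 10 µM fenbuconazole, against 10.13, 10.17 and 10.09 in DMSO. Probe set 204615_PM_x_at was at 10.15, 10.24 and 10.08, against 9.89, 9.92 and 9.87. Neither probe set overlapped between groups, and both had a log2 change of 0.26 (SE 0.08 and 0.09) without passing the adjusted test. The IDI1 probe set 242065_PM_x_at had a change of -0.13 ± 0.11 (SE) and 233014_PM_at one of -0.25 ± 0.22 (SE), opposite in sign. FDPS encodes farnesyl diphosphate synthase, the last enzyme considered. It was at 9.99, 9.78 and 9.68 at 10 µM, against 9.79, 9.46 and 9.48 in DMSO. The groups overlapped through the highest DMSO array, and the change was 0.24 ± 0.10 (SE).

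**Figure D2:**
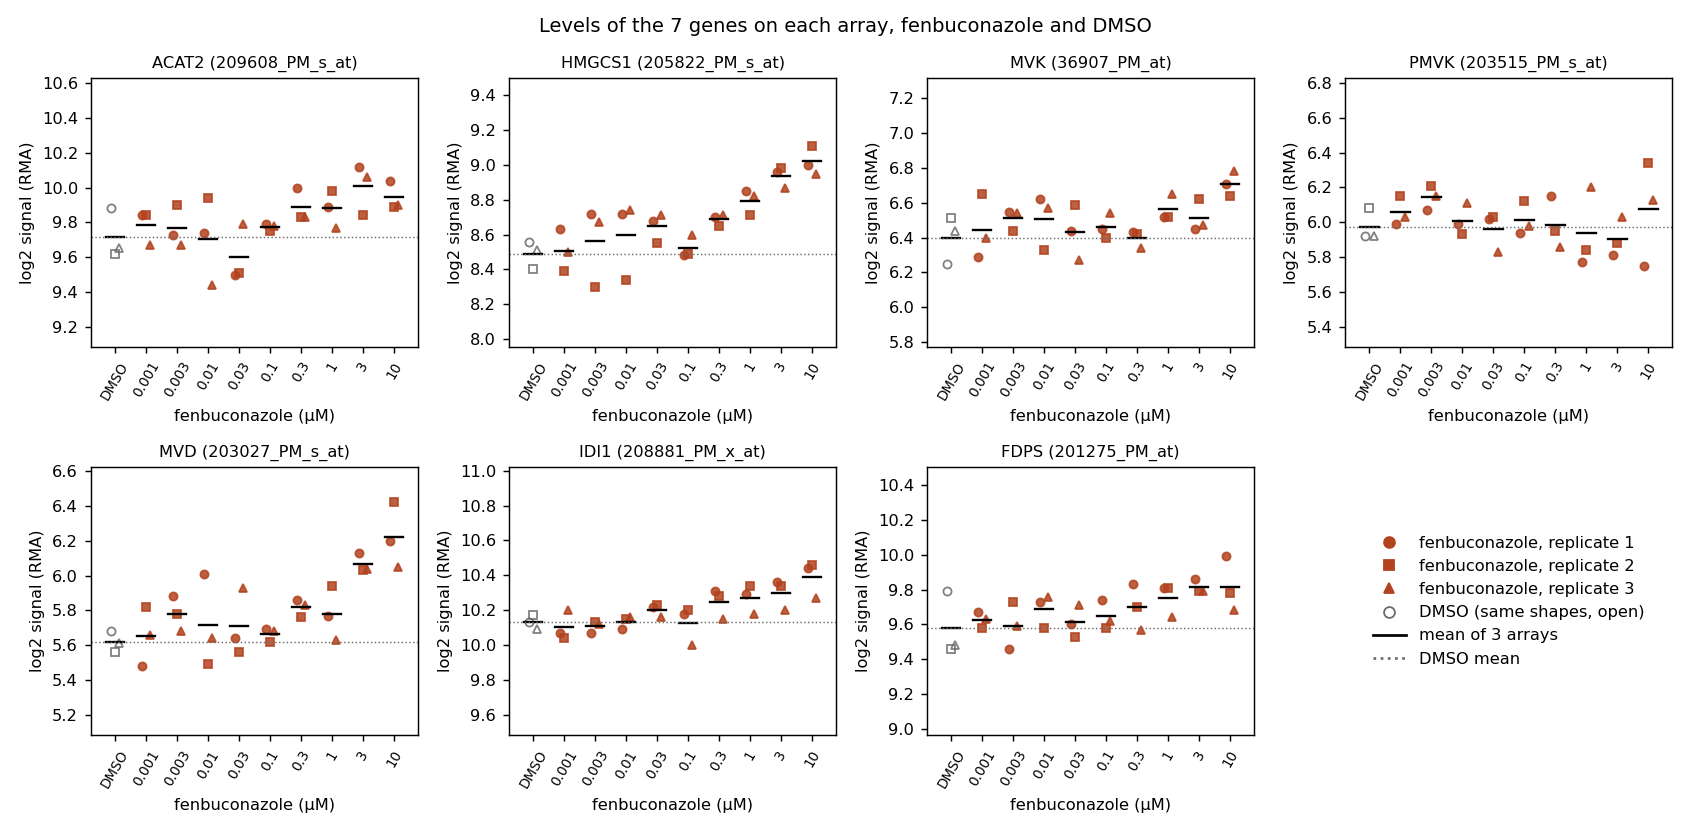
Log2 signal of single arrays for the brightest probe set of the 7 genes, at each fenbuconazole dose in µM and in DMSO, with the group means. HMGCS1 and MVD reach their highest means, 9.02 and 6.22, at 10 µM, and PMVK shows no order by dose.

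The order of the dose means was then examined. For HMGCS1 the lowest mean was that of DMSO, followed by 0.001, 0.1, 0.003, 0.01, 0.03, 0.3, 1, 3 and 10 µM. Of the 9 pairs of neighbours in that order, 1 pair did not overlap between arrays, 1 and 3 µM, so most neighbours did not differ beyond their spread. For MVD the order was DMSO, 0.001, 0.1, 0.03, 0.01, 1, 0.003, 0.3, 3 and 10 µM, and the pair 0.3 and 3 µM did not overlap. The means of HMGCS1 spanned 0.53 and those of MVD 0.61, against within-group SDs of 0.12 and 0.15. The means of PMVK spanned 0.23, against 0.15. The median log2 change of the 7 genes was 0.05, 0.07, 0.10, 0.04, 0.04, 0.12, 0.16, 0.24 and 0.26 from 0.001 to 10 µM. At the 5 lowest doses it stayed at or below 0.10.

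Across the 9 fenbuconazole doses, HMGCS1 had the lowest limma p of the genes in the F test (F = 6.19, adjusted p = 0.413), followed by MVD (F = 5.31, adjusted p = 0.741). Of the 14 probe sets, 0 passed after adjustment, against 0.00549% of all probe sets, and 5 had an unadjusted limma p under 0.05, against 3.44%. The slope per 10-fold dose, fitted to the 27 exposed arrays without DMSO, was 0.12 ± 0.02 for HMGCS1 (SE, limma adjusted p = 0.0181), so HMGCS1 rose with dose. The other HMGCS1 probe set had a slope of 0.11 ± 0.03 (limma adjusted p = 0.279) and MVD one of 0.11 ± 0.03 (limma adjusted p = 0.27). IDI1 had 0.07 ± 0.01 and ACAT2 0.07 ± 0.02, FDPS 0.06 ± 0.02, MVK 0.04, and PMVK -0.02 ± 0.02. That was 1 of 14 probe sets past adjustment, against 0.011% of all, and 7 of 14 at an unadjusted p under 0.05, all above 0, against 6.06%. The HMGCS1 slope no longer passed when the arrays of any replicate number or any single 10 µM array was left out, with limma adjusted p between 0.0765 and 0.373. It also did not pass when the sets were quantile normalized together, where the slope was 0.12 ± 0.02 (limma adjusted p = 0.0591).

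A contrast of 10 µM with the mean of the 3 lowest doses uses 9 arrays as the reference and no DMSO array. HMGCS1 rose to 9.02 ± 0.08 at 10 µM (n = 3), against 8.56 ± 0.18 at the lowest doses (SD, n = 9), whose arrays ranged between 8.30 and 8.74 with a median of 8.63. All 3 arrays at 10 µM were above the highest of the 9. The log2 difference was 0.46 ± 0.09 (SE, 1.38-fold, limma adjusted p = 0.0437). MVD had a difference of 0.51 ± 0.10 (SE, limma adjusted p = 0.0697), and did not pass. With 1 probe set per gene (0.0337), without dim probe sets (0.0395) and with trended and robust eBayes (0.0378) the limma adjusted p passed, while with any array left out it lay between 0.0878 and 0.735, and with joint normalization, a technical covariate or the replicate block between 0.0719 and 0.15. The differences were 0.28 ± 0.06 for IDI1, 0.22 for MVK, 0.19 for ACAT2, 0.18 for FDPS and 0.01 for PMVK. Of the 14 probe sets, 1 passed, against 0.0256% of all probe sets, and 9 had an unadjusted limma p under 0.05, against 5.13%. Of the 9, 8 were above the lowest doses and 1, IDI1 242065_PM_x_at, was below them with a difference of -0.19. The HMGCS1 call was lost when any replicate number, any single 10 µM array or any single DMSO array, which enters only the estimate of spread, was left out, with limma adjusted p between 0.0534 and 0.547. It was also lost when the sets were quantile normalized together, where the difference was 0.46 ± 0.09 (limma adjusted p = 0.0792). The difference between the 3′ and 5′ GAPDH control probe sets, a sign of RNA quality, was -0.116 ± 0.0355 at 10 µM fenbuconazole, against -0.0553 ± 0.0554, -0.0849 ± 0.0475 and -0.0646 ± 0.0372 at 0.001, 0.003 and 0.01 µM (SD, n = 3 each). With that value as a covariate the HMGCS1 difference was 0.48 ± 0.10 (SE, limma adjusted p = 0.122) and its slope 0.13 ± 0.02 (limma adjusted p = 0.0592), no smaller than without it, and neither call was kept.

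**Figure D3:**
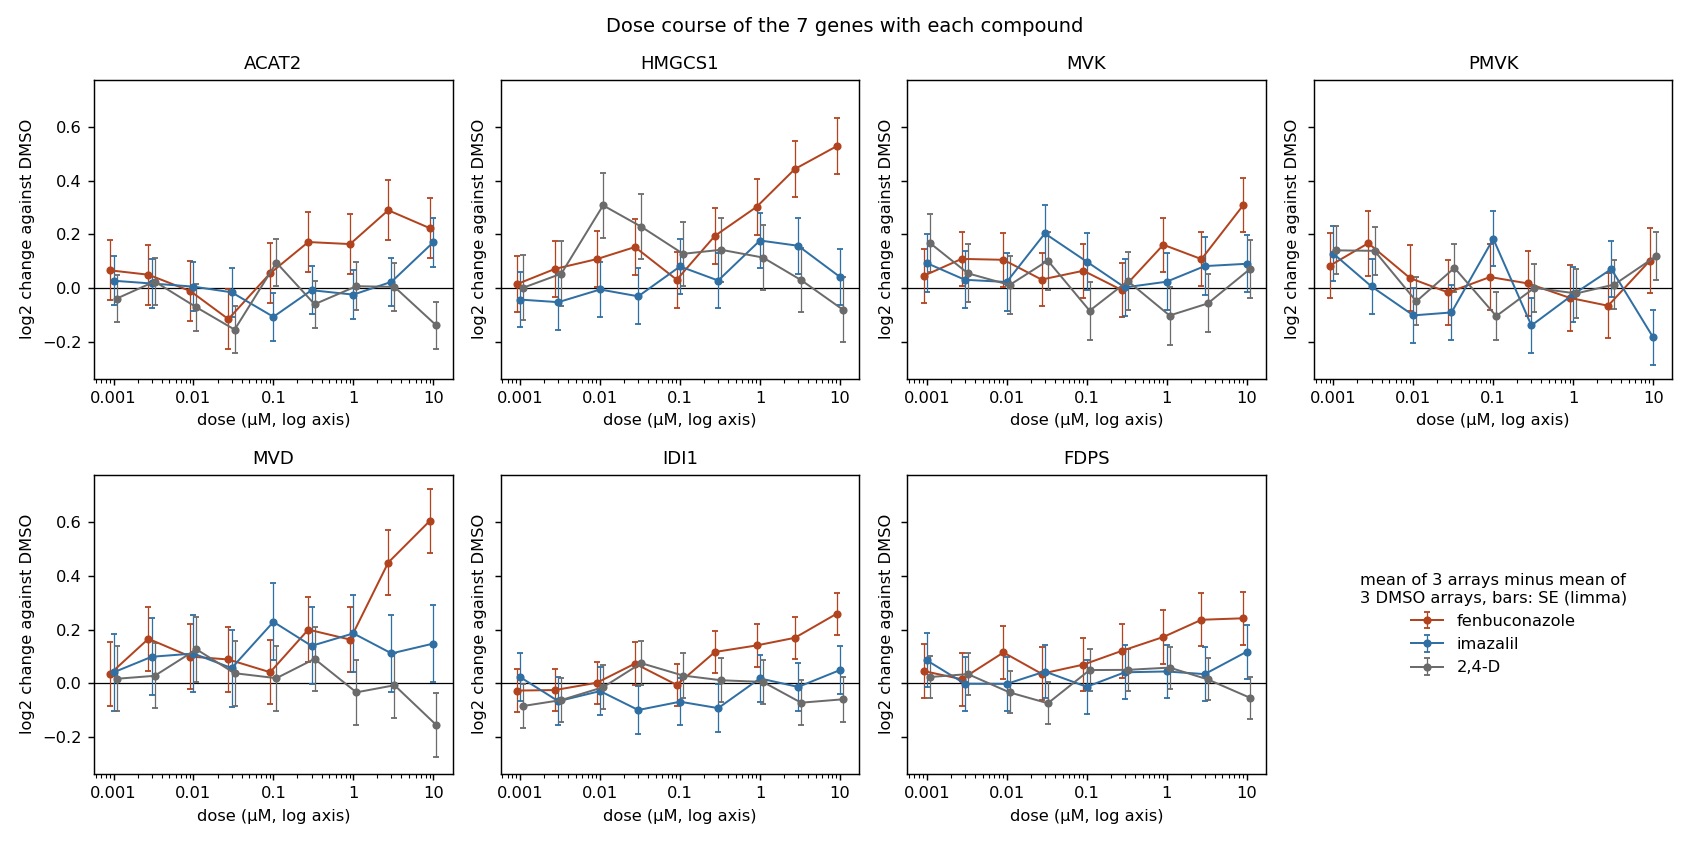
Mean log2 change against the DMSO arrays of the same set for the 7 genes, by dose in µM (log axis), for fenbuconazole, imazalil and 2,4-D, with bars of 1 SE from limma. The fenbuconazole lines of HMGCS1 and MVD reach 0.53 and 0.61 at 10 µM, while the imazalil lines end at 0.04 and 0.15 and the 2,4-D lines at -0.08 and -0.16.

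With imazalil, none of the genes passed the adjusted test. HMGCS1 (205822_PM_s_at) was at 8.59, 8.55 and 8.48 at 10 µM, against 8.58, 8.41 and 8.51 in the DMSO columns of that set, a change of 0.04 ± 0.10 (SE). The groups overlapped. The highest mean of that probe set was at 1 µM, where the arrays were at 8.63, 8.81 and 8.59, all above the DMSO arrays. At 3 µM its change was 0.16. Its slope per 10-fold imazalil dose was 0.05 ± 0.02 (SE, limma adjusted p = 0.732), and that of 221750_PM_at was 0.03 ± 0.02 (limma adjusted p = 0.946). At 10 µM the other HMGCS1 probe set had a change of 0.32 ± 0.12 (SE, 1.25-fold, limma adjusted p = 0.945), a larger value than that of the brighter one. The change of ACAT2 was 0.17 ± 0.09, and the changes were 0.15 for MVD, 0.12 for FDPS, 0.09 for MVK and 0.05 for IDI1. MVD was at 5.52, 5.50 and 5.37, against 5.46, 5.29 and 5.20 in DMSO, and the groups overlapped. PMVK was at 5.68, 5.63 and 5.64, against 5.78, 5.85 and 5.87 in DMSO. All 3 exposed arrays were below all DMSO arrays, with a change of -0.18 ± 0.10 (SE, limma adjusted p = 0.975).

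Of the 14 probe sets, 0 passed at 10 µM imazalil against DMSO (0.0403% of all probe sets did), 0 in the F test (0.0201%), 0 against the 3 lowest doses (0.0952%) and 0 for the slope (0.0256%). At an unadjusted limma p under 0.05 the counts were 1, 2, 3 (2 above and 1 below 0) and 1 of 14, against 5.11%, 4.31%, 6.08% and 6% of all probe sets. No probe set had all 3 arrays above DMSO at 10 µM, against 5.49% of all. The counts at 10 µM and for the slope, 1 of 14 each, were near the share among all probe sets.

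With 2,4-D, the changes at 10 µM were -0.16 for MVD, -0.14 for ACAT2, -0.08 for HMGCS1, -0.06 for IDI1, -0.05 for FDPS, 0.07 for MVK and 0.12 for PMVK. HMGCS1 was at 8.62, 8.51 and 8.56, against 8.75, 8.54 and 8.64 in DMSO. MVD was at 5.22, 5.74 and 5.20, against 5.68, 5.54 and 5.41 in DMSO. Both genes overlapped with DMSO, and 1 of the 3 exposed MVD arrays stood well above the other exposed arrays. The highest HMGCS1 dose mean of the 2,4-D set was at 0.01 µM, where the arrays were at 8.81, 9.00 and 9.05, all above the DMSO arrays, a change of 0.31 ± 0.12 (SE, limma adjusted p = 0.999). The other HMGCS1 probe set had a change of 0.09 at that dose, so the value was not shared between the probe sets of the gene.

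For 2,4-D, 0 of the 14 probe sets passed in each of the 10 µM, F, low dose and slope tests, and 0% of all probe sets did. At an unadjusted limma p under 0.05 the counts were 0, 1, 2 (both below 0) and 0 of 14, against 4.13%, 5.04%, 4.21% and 4.78% of all. No probe set had all 3 arrays above DMSO at 10 µM, against 3.71% of all. In these tests no count of members exceeded 2 of 14. At 0.01 µM against DMSO, 3 of 14 had an unadjusted limma p under 0.05, against 4.3% of all.

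The compounds were compared at 10 µM after subtraction of the DMSO mean of each set, in 3 pairs. The DMSO means entered as fixed numbers, so the errors, intervals and p-values of these differences leave out the spread of the DMSO arrays. The same DMSO arrays were subtracted in each set, but their values depend on the set: the DMSO mean of MVD was 5.62 in the fenbuconazole set, 5.31 in the imazalil set and 5.54 in the 2,4-D set. The azoles fenbuconazole and imazalil differ in the ring and in the rest of the molecule. For fenbuconazole minus imazalil the difference of HMGCS1 205822_PM_s_at was 0.49 ± 0.11 (SE, 95% interval 0.27 to 0.70, limma adjusted p = 0.121). That of MVD was 0.46 ± 0.14 (interval 0.18 to 0.74, limma adjusted p = 0.41) and that of PMVK 0.29 ± 0.12. ACAT2 had a difference of 0.05 (95% interval -0.15 to 0.25). Of the 14 probe sets 0 passed, against 0.0128% of all, and 6 had an unadjusted limma p under 0.05, all above 0, against 8.75%. The adjusted test thus called no difference between the azoles. The intervals of HMGCS1 205822_PM_s_at and MVD lay above 0, while the other HMGCS1 probe set, 221750_PM_at, had a difference of -0.03 (interval -0.28 to 0.22), so the probe sets of the gene did not give the same value.

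Between fenbuconazole and 2,4-D, 2 of the 14 probe sets passed, against 0.0311% of all, and 9 had an unadjusted limma p under 0.05, against 6.31%. Of the 9, 8 were above 0 and 1, IDI1 242065_PM_x_at, was below it at -0.25. MVD was higher with fenbuconazole by 0.76 ± 0.12 (SE, interval 0.51 to 1.01, limma adjusted p = 0.00257) and HMGCS1 by 0.61 ± 0.12 (interval 0.38 to 0.84, adjusted p = 0.0256). The differences of ACAT2, IDI1, FDPS and MVK were 0.36, 0.32, 0.30 and 0.24 without passing, and that of PMVK was -0.02. The HMGCS1 difference no longer passed without any single replicate number, or without the 10 µM arrays of any number, 1 per compound. The limma adjusted p lay between 0.132 and 0.617. The MVD difference no longer passed without replicate 1 or 3 as a whole, or without the 10 µM arrays of replicate 1 or 3 (limma adjusted p between 0.0727 and 0.354). Fitted to the 10 µM arrays of the 2 compounds alone, neither passed (limma adjusted p = 0.984 for each). Between imazalil and 2,4-D, 0 of the 14 passed, against 0.0824% of all, and 6 had an unadjusted limma p under 0.05, 4 above and 2 below 0, against 7.79%. For imazalil minus 2,4-D the HMGCS1 difference was 0.39 ± 0.10 in 221750_PM_at (SE, limma adjusted p = 0.159) and 0.12 in 205822_PM_s_at, and that of PMVK was -0.30 ± 0.10 (limma adjusted p = 0.406).

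The probe sets of a gene were compared over the 27 mean changes, 9 doses of 3 compounds. The correlations are descriptions, since the points of a compound share DMSO arrays and the probe sets share arrays. The IDI1 probe sets 204615_PM_x_at and 208881_PM_x_at were the closest pair (Pearson r = 0.888 over 27 means, and 0.852 over the 9 fenbuconazole means). The HMGCS1 probe sets had r = 0.468 over 27 and 0.687 over 9. The other IDI1 probe sets had r = -0.0849 (242065_PM_x_at) and 0.0509 (233014_PM_at) with the brightest, and the dim FDPS probe set had 0.138. For MVK the values were 0.0572 (215649_PM_s_at) and 0.455 (204056_PM_s_at). Probe sets marked x_at or s_at can match several transcripts, which the table does not list.

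Between genes, ACAT2 and FDPS had r = 0.868 over the 27 means (0.819 over the 9 fenbuconazole means). HMGCS1 had r = 0.839 with IDI1 (0.965) and 0.774 with MVD (0.933). IDI1 and FDPS had r = 0.738, and MVD and FDPS 0.708. PMVK stood apart from the other 6 genes, with r between -0.269 and 0.316. These values share arrays and normalization, and carry no p-value.

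**Figure D4:**
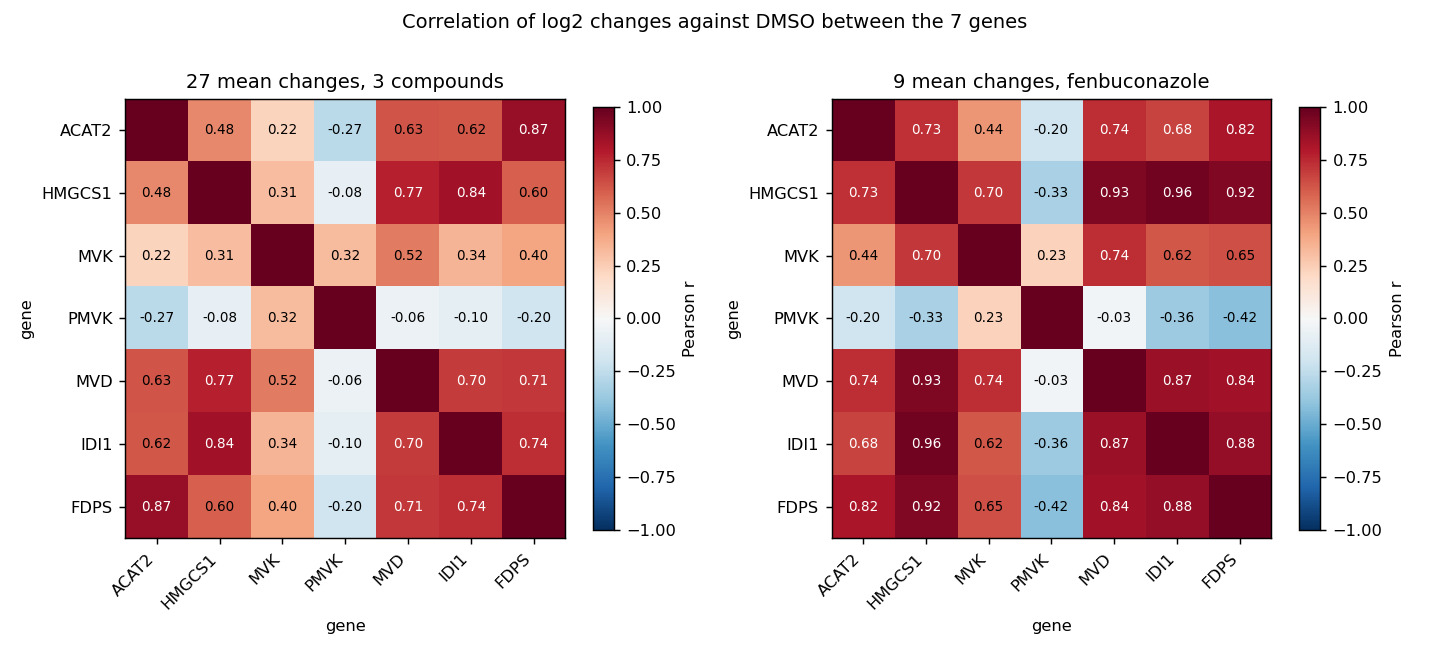
Pearson r between the log2 changes of the 7 genes, over 27 means (3 compounds by 9 doses, left) and over the 9 fenbuconazole means (right), with red for r above 0 and blue for r below 0. On the left, ACAT2 with FDPS (0.868) and HMGCS1 with IDI1 (0.839) are the darkest pairs, and the row of PMVK is pale.

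Among 12474 other genes with a mean level above the median of all probe sets, the 10 whose 27 changes were most like the mean of the 7 genes were LSS (r = 0.906), DHCR7 (0.834), CYP51A1 (0.831), ACSS2 (0.806), EBP (0.804), HSD17B7 (0.78), LPIN1 (0.756), CDK2AP2 (0.749), TRIB3 (0.747) and ERG28 (0.738). At 10 µM fenbuconazole the log2 change was 0.38 for LSS, the lanosterol synthase, 0.32 for DHCR7, the reductase of the last step to cholesterol, and 0.29 for CYP51A1, the sterol demethylase. It was 0.56 for ACSS2, which makes acetyl-CoA from acetate, and 0.48 for LPIN1, a phosphatidate phosphatase. None of the 10 passed the adjusted test against DMSO. For 10 µM fenbuconazole against the 3 lowest doses, ACSS2 and LPIN1 (limma adjusted p = 0.00348 each) and LSS (0.00769) passed. The others did not, and 0.0256% of all probe sets passed in that contrast. The likeness is a ranking over 27 means that share arrays and that include these values, so the changes are a description.

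The genes on either side of farnesyl diphosphate were set beside the 7. Of 13 listed enzymes from squalene to cholesterol, 11 were measured. At 10 µM fenbuconazole 0 of 11 passed, against 0.00549% of all probe sets, and 6 had an unadjusted limma p under 0.05, all above DMSO, against 4.36% of all. A total of 10 of the 11 lay above DMSO, with a median of 0.20, from LBR at -0.28 to LSS at 0.38 ± 0.08 (SE). LSS rose against the 3 lowest doses by 0.42 ± 0.07 (limma adjusted p = 0.00769), as 1 of 11 against 0.0256% of all probe sets, and with dose by 0.09 ± 0.01 per 10-fold step (limma adjusted p = 0.0179), as 1 of 11 against 0.011%. Against 2,4-D at 10 µM, LSS was higher with fenbuconazole by 0.47 ± 0.07 (SE, limma adjusted p = 0.000183) and DHCR7 by 0.41 ± 0.08 (limma adjusted p = 0.0256). These were 2 of 11, against 0.0311% of all probe sets, and for these genes no array was left out in turn. With imazalil the sterol enzymes had a median of 0.05 and 9 of 11 above DMSO, and with 2,4-D a median of -0.04 and 4 of 11.

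A list of 10 genes led from farnesyl diphosphate to prenylation, dolichol, ubiquinone and, for COX10, haem A. All 10 were measured, and 2 lay above DMSO at 10 µM fenbuconazole, with a median of -0.05. The highest was DHDDS, a subunit of the dolichol-forming prenyltransferase, at 0.11, and the lowest PGGT1B, a subunit of a protein prenyltransferase, at -0.09. None passed at 10 µM fenbuconazole against DMSO (limma), and 0 had an unadjusted p under 0.05, against 4.36% of all probe sets. Of 8 regulators and uptake genes of the sterol system, 5 lay above DMSO with a median of 0.05, from MBTPS2, a protease that processes SREBP, at -0.12 to STARD4, a sterol carrier, at 0.30. Of these, 0 passed and 1 had an unadjusted limma p under 0.05, against the same 4.36%. The relatives that do not belong to the cytosolic pathway, ACAT1, the mitochondrial thiolase, and IDI2, an IDI1 paralog, had changes of -0.01 and -0.30, and 0 of 2 passed (limma), with 1 of the 2 below DMSO at an unadjusted p under 0.05. The difference between the 7 genes and these lists was not tested.

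**Figure D5:**
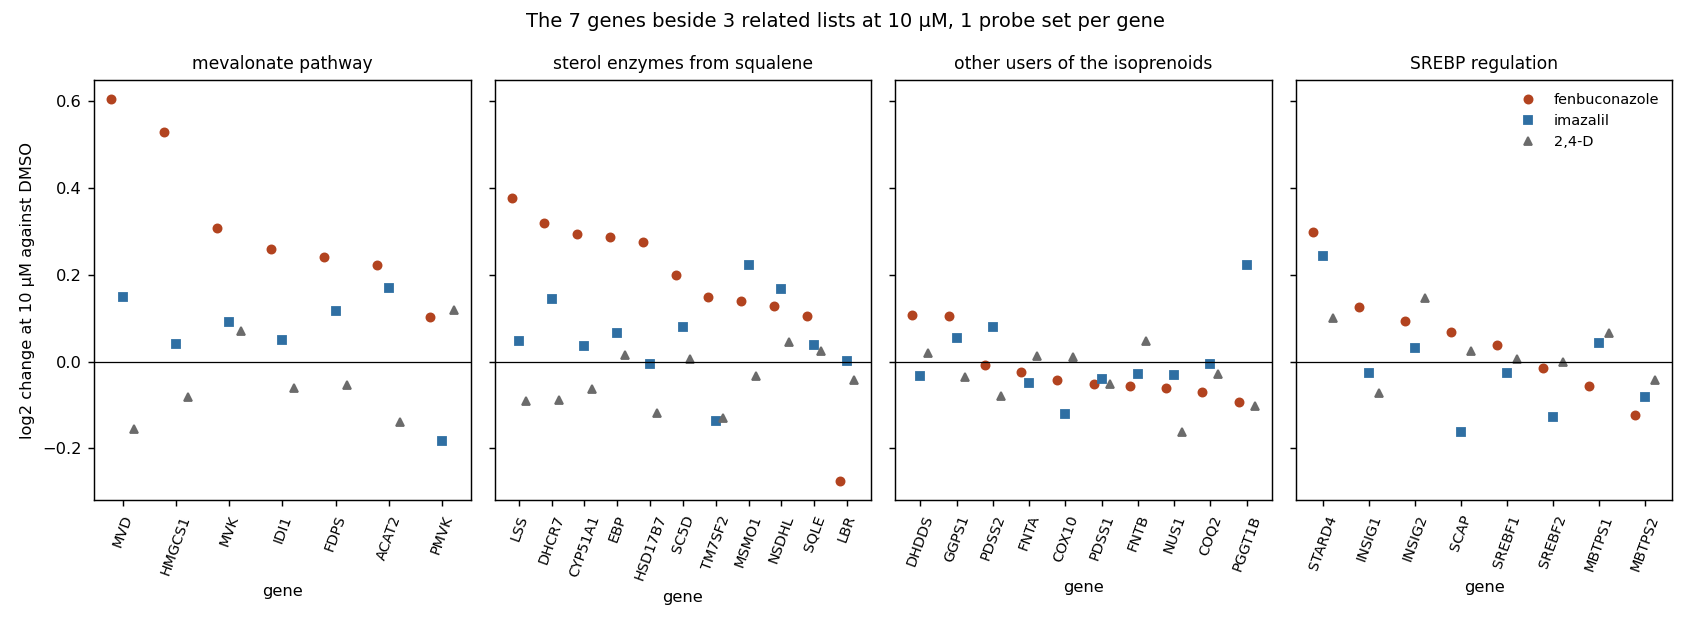
Log2 change at 10 µM against DMSO (vertical axis) of each gene in 4 groups, the 7 mevalonate genes, the enzymes from squalene, the genes of the isoprenoid branch and the sterol regulators, with 1 point per compound. With fenbuconazole the medians of the groups are 0.26, 0.20, -0.05 and 0.05.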

How the data were processed

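Total RNA of HepG2 cells was labelled with biotin and measured on Affymetrix 3′ expression arrays (HT HG-U133+ PM). As deposited, the values are log2 intensities that the authors normalized by RMA within each compound's set, per the labels. Partek is also named in the submitters' processing notes. Versions and settings are not given in the sources used here. There were 90 columns of 84 arrays, because copies of the 3 DMSO arrays were normalized in each set of 30 columns. Between sets, only differences from the set's own DMSO mean were compared. The number of arrays limits the precision.

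In R 4.3.3 with limma 3.58.1, lmFit and eBayes were applied to each set, with 1 mean per group and no filter, over 54613 probe sets (102 controls left out). The contrasts were each dose minus DMSO, an F test over 9 doses, a slope per 10-fold dose (27 exposed columns) and 10 µM against the averaged 3 lowest doses. Compounds were compared at 10 µM over 54 exposed columns. P values were two-sided and adjusted by Benjamini-Hochberg within each contrast (threshold 0.05). Probe sets were named from the platform annotation (40914 with 1 symbol, 864 with several, 12835 with none), and the 7 symbols matched RefSeq by Entrez identifier. Named genes were the 7, up to 4 called genes of each list or its highest and lowest, and the 10 most alike. The script was tested on simulated data. The deviations of same-numbered arrays from their group means were compared between 10 µM and DMSO by Pearson r. The r lay between 0.0775 and 0.342 for fenbuconazole, -0.122 and 0.135 for imazalil and 0.162 and 0.372 for 2,4-D. In the 2,4-D set each was above the highest r with another number. In the fenbuconazole set replicates 1 and 2 were (0.342 against -0.0248, 0.183 against -0.0497), but not replicate 3 (0.0775 against 0.0997). In the imazalil set replicate 1 was not (-0.122 against 0.17). Only in the 2,4-D set was the r with the same number thus the highest for every replicate. These r values alone do not settle whether the arrays were paired. The block was run as an alternative throughout and changed no call of a member. Further alternatives were 1 probe set per gene, a filter on dim probe sets, trended and robust eBayes, the compared groups alone, joint quantile normalization, 2 technical covariates and left-out arrays. The genes and lists were chosen with earlier results of these data known. Some items of the pathway are not reported here.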

Additional observations from a re-analysis of the deposited data

Results flagged for a closer look

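The responses to fenbuconazole and 2,4-D at 10 µM differed for 2 of the 14 probe sets, by a test of the difference itself (limma, adjusted over all probe sets), against 0.0311% of all probe sets. For MVD, fenbuconazole minus 2,4-D was 0.76 on the log2 scale, from a change of 0.61 with fenbuconazole and of -0.16 with 2,4-D (fenbuconazole above all DMSO arrays in 3 of 3 arrays). For HMGCS1 (205822_PM_s_at), fenbuconazole minus 2,4-D was 0.61, from 0.53 with fenbuconazole and -0.08 with 2,4-D (also 3 of 3 arrays). With the 10 µM arrays of the 2 compounds alone the limma adjusted p was 0.984 for both. The HMGCS1 call was lost without any 1 replicate number or its 10 µM arrays, 1 per compound (limma adjusted p between 0.132 and 0.617). The MVD call was lost without replicate 1 or 3. The 3 MVD arrays at 10 µM 2,4-D were at 5.22, 5.74 and 5.20, and groups of 3 were not tested for outliers.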

How the results depend on the processing

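The 3 medians over the 7 genes at 10 µM stayed within the spread between arrays under every alternative run. They ran at 0.22 to 0.31 for fenbuconazole, 0.02 to 0.15 for imazalil and -0.08 to -0.02 for 2,4-D. The replicate block, 1 probe set per gene, trended and robust eBayes and the groups alone cannot move these medians. Only the other alternatives bear on them. Counts of member probe sets past the threshold depended on the setting. Trended and robust eBayes gave 1 at 10 µM fenbuconazole against DMSO and 1 in the F test (HMGCS1 in both), 3 against the 3 lowest doses (HMGCS1, MVD and IDI1) and 2 for the slope (HMGCS1 and IDI1). Against the 3 lowest doses there were 2 with 1 probe set per gene and 2 without dim probe sets, and for the slope 2 without dim probe sets. Joint quantile normalization and the GAPDH covariate gave 0 for both. For fenbuconazole minus 2,4-D the groups alone gave 0 and the interquartile range as a covariate 5, and that covariate gave 1 (HMGCS1 221750_PM_at) for imazalil minus 2,4-D. The cause was not tested. With arrays left out, the fenbuconazole counts were 0 to 0 against the 3 lowest doses, 0 to 1 for the slope and 0 to 2 against 2,4-D. The count of 1 for the slope arose only where a DMSO array, which the slope does not use, was left out. Without arrays that enter the slope it was 0. The replicate block left all member counts as they were, 0 at 10 µM fenbuconazole, 1 against the 3 lowest doses, 1 for the slope and 2 against 2,4-D. With each replicate number once in every group, a block cannot move a difference between groups, only its error. The groups alone were not run for the F test, the slope and the 3 lowest doses.

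Over all 54613 probe sets, the counts past the threshold moved more widely. For fenbuconazole they were 3 at 10 µM against DMSO (0 to 14 over the alternatives), 3 in the F test (0 to 16), 14 against the 3 lowest doses (0 to 28) and 6 for the slope (0 to 11). For imazalil they were 22 (3 to 38), 11 (1 to 32), 52 (4 to 75) and 14 (0 to 36) in the same order, and for 2,4-D 0 in each (0 to at most 5). Fenbuconazole minus imazalil gave 7 (0 to 11), fenbuconazole minus 2,4-D 17 (1 to 54) and imazalil minus 2,4-D 45 (2 to 112, and 71 with the replicate block).

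Of 1138 values of single probe sets under the alternatives, 26 changed sign, and none of those had passed the test. With arrays left out, log2 values ran between these limits. At 10 µM fenbuconazole PMVK ran between -0.0301 and 0.26 and FDPS 217344_PM_at between -0.0782 and 0.16. Against the 3 lowest doses PMVK ran between -0.13 and 0.17 (-0.00126 with the interquartile range), IDI1 233014_PM_at between -0.17 and 0.13 and FDPS 217344_PM_at between -0.17 and 0.0358. The slope of IDI1 233014_PM_at ran between -0.0490 and 0.000881. At 10 µM imazalil HMGCS1 ran between -0.00760 and 0.0830, MVK between -0.0772 and 0.19 and FDPS between -0.00345 and 0.23. At 10 µM 2,4-D MVK ran between -0.0103 and 0.16, MVD between -0.34 and 0.000338 and FDPS between -0.11 and 0.00918. ACAT2 ran between -0.0211 and 0.0932 for fenbuconazole minus imazalil, and PMVK between -0.0878 and 0.10 for fenbuconazole minus 2,4-D. IDI1 233014_PM_at and FDPS 217344_PM_at were the dimmest of the 14 probe sets, which limits what their values can show.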
